A study of Mus musculus with 6 samples.

Results

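The genes described here carry glucose into the cell, break it down to pyruvate and lactate, sense oxygen, or are known targets of the hypoxia-inducible factors (HIFs). They were listed by symbol for these roles, at a time when earlier results of these data were known. There were 36 of them among the 24982 genes listed for each library, with 4 in oxygen sensing, 2 in glucose uptake, 9 in upper glycolysis, 2 that make or remove the phosphofructokinase activator fructose-2,6-bisphosphate, 6 in lower glycolysis, 4 that set the fate of pyruvate and 9 hypoxia targets.

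Poly(A) RNA was sequenced from a pair of mouse keratinocyte lines, with 3 libraries of KSFM-Ca2+ cells and 3 of DKSFM cells. Both came from neonatal skin of the C57BL/6 strain and neither received a treatment. The KSFM-Ca2+ cells had been raised in a medium of lower calcium, where they grew out of a few colonies, and the DKSFM cells are descendants that outlived a move into the defined medium DKSFM. Medium, calcium and the outgrowth of survivors differed together between the lines and cannot be told apart. The study's karyotyping found tetraploid and hyperdiploid KSFM-Ca2+ cells. Whether a replicate was a separate culture is not stated, so every p-value below measures the spread between these samples, which may be technical. The names of the deposited data for KSFM-Ca2+ replicate 3 and the 3 DKSFM replicates carry the word "combined", which is not explained in the sources used here.

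In glycolysis, hexokinases trap glucose as glucose-6-phosphate, phosphofructokinase-1 commits it to breakdown, the lower enzymes earn ATP, and lactate dehydrogenase regenerates NAD+ from pyruvate. When oxygen is plentiful, EGLN prolyl hydroxylases mark the HIF alpha subunits for destruction by the VHL ubiquitin ligase, a control at the protein level that RNA does not show. When oxygen is short, stable HIF alpha pairs with ARNT and raises the genes of glucose uptake, glycolysis and blood vessel growth, and the epidermis, which has no vessels of its own, is known as a mildly hypoxic tissue.

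The values are mean read coverage per base of each gene, given to 1 decimal, so that 0.1 is the smallest value above 0 and levels may be compared between genes. Coverage summed over all genes was 1601676, 1238411 and 1057751 in KSFM-Ca2+ replicates 1 to 3, and 1174348, 1239438 and 1170675 in DKSFM replicates 1 to 3. The values below are coverage after scaling between libraries. Fold changes are DKSFM over KSFM-Ca2+ on the log2(coverage + 0.1) scale, which understates the change of genes of low coverage. A gene was tested with limma when its coverage was at least 0.5 in at least 3 libraries, which left 12409 genes, and a change was called at an adjusted p under 0.01.

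Because many of the 36 genes are known HIF targets, the sequence before their start sites was searched for the HIF site and is shown for a few. RefSeq start sites on GRCm38.p6 were found for 33 of the 36 genes, with 47 start sites in all, and none was listed for Epas1, Ndrg1 and Slc2a3. The 250 bases before each start were searched on both strands for the letters ACGTG and GCGTG, the cores of the HIF binding site, and matches that overlap on opposite strands were counted separately. ACGTG was found before 48.9% of the 47 starts and before 16.6% of all 32851 starts in the table. GCGTG was found before 55.3% and 28.2%, and either of them before 78.7% and 38.6%. The 47 windows were also richer in G and C, with a median of 60.4% against 52.4% in all windows. Both motifs contain CG, and the part of base composition in these shares was not tested. The starts in the table include those of genes not tested in these cells, and shares among the tested genes were not computed. Counted by gene, either motif was found in 87.9% of the 33 genes and in 41.5% of all 27025 genes of the table. Of the genes called below that had a start site, either motif was found in 16 of 17 that were lower in the DKSFM cells and in 9 of 10 that were higher. ACGTG was found in 12 of the 17 lower and 5 of the 10 higher genes, and GCGTG in 11 of the 17 and 8 of the 10, beside 18.5% and 30.9% of all genes of the table, differences between directions that were not tested. A match describes the sequence and is not a site of binding. The 6 windows below belong to genes past 2-fold and, for Ldha, to the main lactate dehydrogenase gene, and all were chosen from windows with a match after the matches were seen. Of the starts not shown, the other Ldha start had GCGTG once, an Aldoa start had no match, and Hk1, Vegfa and Pkm each had a start with a match and a start without. The capitals mark either motif on either strand. GENCODE M21 places 13 bases of the Bnip3 window in an exon of that gene and no exon in the other windows. The Ldha and Aldoa windows lie between exons inside the span of their own gene, and the Aldoa window also lies in the span of Fam57b on the other strand.
Ldha, chr7:46845554-46845803, plus strand: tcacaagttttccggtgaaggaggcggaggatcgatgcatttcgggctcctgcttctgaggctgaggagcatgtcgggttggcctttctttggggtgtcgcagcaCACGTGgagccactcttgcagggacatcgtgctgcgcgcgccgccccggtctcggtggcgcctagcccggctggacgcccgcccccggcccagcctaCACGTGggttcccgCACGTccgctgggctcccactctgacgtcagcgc
Bnip3, chr7:138909507-138909756, minus strand: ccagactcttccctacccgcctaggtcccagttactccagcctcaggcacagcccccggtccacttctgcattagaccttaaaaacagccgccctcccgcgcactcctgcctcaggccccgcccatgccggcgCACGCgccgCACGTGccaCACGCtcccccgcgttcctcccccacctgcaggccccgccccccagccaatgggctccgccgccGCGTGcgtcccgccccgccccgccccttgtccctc
Egln3, chr12:54203875-54204124, minus strand: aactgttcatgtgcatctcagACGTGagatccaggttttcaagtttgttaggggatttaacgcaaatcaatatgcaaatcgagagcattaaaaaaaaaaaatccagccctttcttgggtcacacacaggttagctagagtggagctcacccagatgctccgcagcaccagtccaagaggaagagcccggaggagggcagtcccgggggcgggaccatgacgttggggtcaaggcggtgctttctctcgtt
P4ha1, chr10:59323046-59323295, plus strand: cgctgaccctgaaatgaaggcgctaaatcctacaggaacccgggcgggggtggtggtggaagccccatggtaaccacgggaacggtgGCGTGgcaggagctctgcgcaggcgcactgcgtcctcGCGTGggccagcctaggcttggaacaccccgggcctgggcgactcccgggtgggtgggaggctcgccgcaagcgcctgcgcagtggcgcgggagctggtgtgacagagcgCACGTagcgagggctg
Ldhb, chr6:142507958-142508207, minus strand: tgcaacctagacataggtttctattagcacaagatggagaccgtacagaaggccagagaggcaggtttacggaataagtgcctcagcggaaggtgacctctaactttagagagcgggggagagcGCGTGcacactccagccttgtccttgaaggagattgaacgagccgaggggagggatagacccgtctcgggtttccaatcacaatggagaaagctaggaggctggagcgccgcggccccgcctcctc
Aldoa, chr7:126799255-126799504, minus strand: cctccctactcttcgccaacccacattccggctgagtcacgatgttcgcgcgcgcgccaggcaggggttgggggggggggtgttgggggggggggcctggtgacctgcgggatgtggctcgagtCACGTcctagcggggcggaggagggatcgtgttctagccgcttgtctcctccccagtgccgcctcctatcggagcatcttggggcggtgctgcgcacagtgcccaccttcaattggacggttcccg

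Of the 36 genes, 33 were tested. In limma, 11 of these rose in the DKSFM cells, where 35.5% of all tested genes rose, and 18 fell, where 37.1% of all tested genes fell. Together 29 of 33 changed, against 72.6% of all tested genes, so a change as such sets few genes apart in this comparison. Changes of at least 2-fold were found in 12 of the 33 genes, against 23.7% of all tested genes. Of these 12, 5 rose (13.2% of all tested genes) and 7 fell (10.5% of all tested genes). The 3 libraries of a line lay wholly above or below those of the other line in 30 of the 33 genes, against 83.3% of all tested genes. Their median fold change on the log2 scale was -0.45 over the 33 genes and -0.00118 over all tested genes. These counts describe the list, and no test of the list as a whole was made. In bulk RNA, fewer cells that express a gene and less RNA per cell cannot be told apart.

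**Figure D1:**
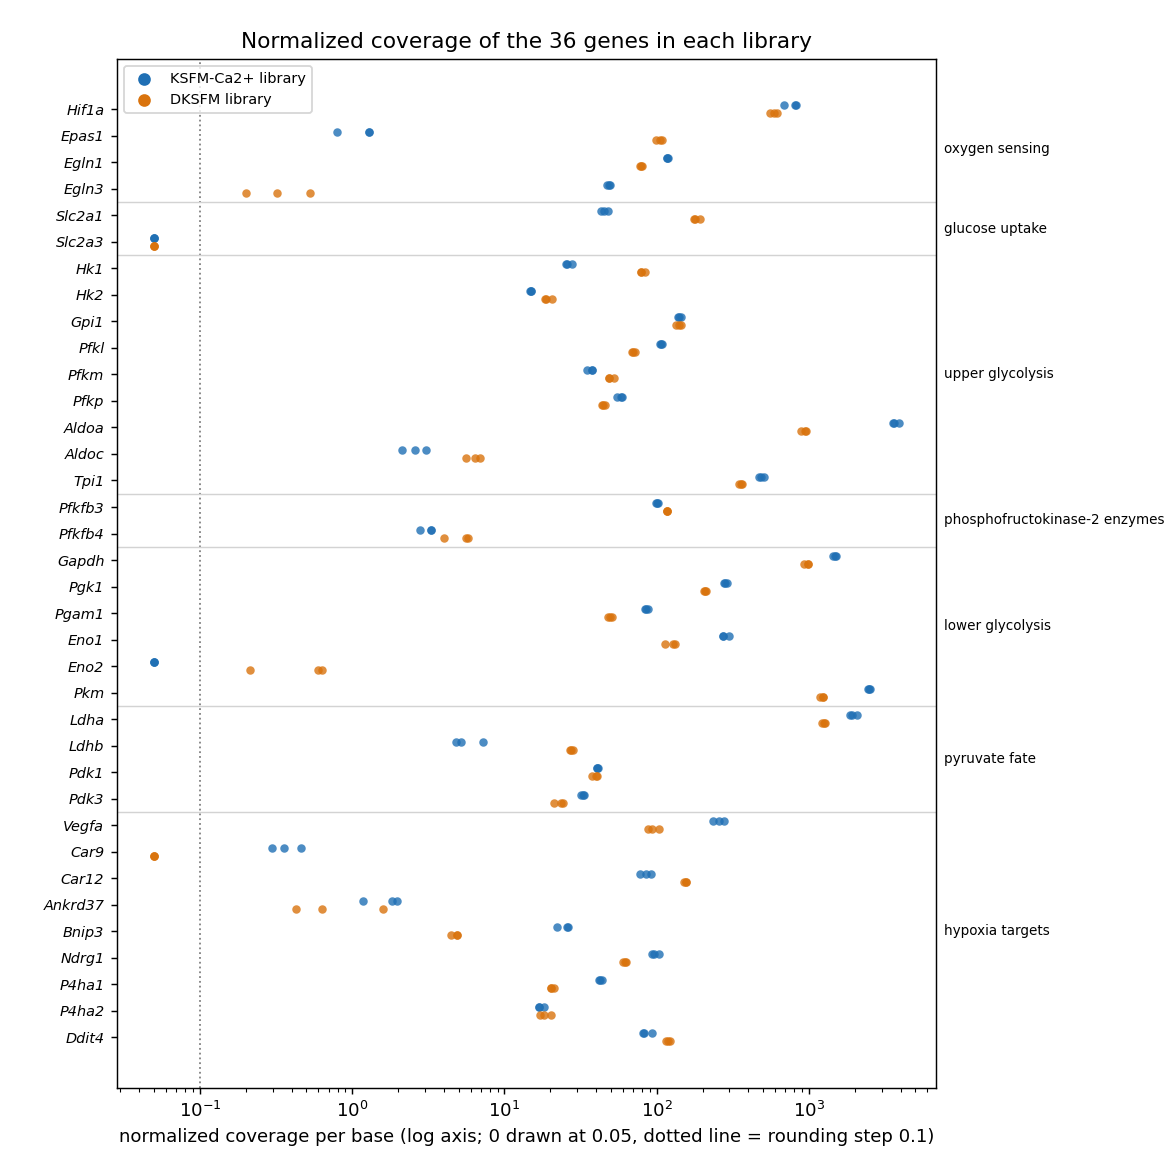
Normalized coverage per base (log axis) of the 36 genes, with 1 point for each of the 3 KSFM-Ca2+ libraries (blue) and 3 DKSFM libraries (orange), grouped by role, with values of 0 drawn left of the dotted line at the rounding step of 0.1. Epas1, Slc2a1, Hk1 and Ldhb lie higher in the DKSFM replicates, and Egln3, Aldoa, Vegfa and Bnip3 lie lower.

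The oxygen-sensing genes held the most extreme changes of the 33. Epas1, which encodes the HIF-2 alpha subunit and lies on chromosome 17 (GRCm38, 86753864 to 86833410), had a coverage of 1.30, 0.791 and 1.30 in KSFM-Ca2+ replicates 1 to 3 and of 104.7, 99.5 and 108.3 in DKSFM replicates 1 to 3. The DKSFM libraries were all far above the KSFM-Ca2+ libraries, and Epas1 rose by 6.44 ± 0.17 (log2, SE, limma adjusted p = 1.28e-08), a size that its low KSFM-Ca2+ values leave imprecise. Hif1a, which encodes HIF-1 alpha, was at 821.6, 804.2 and 685.2 in the KSFM-Ca2+ replicates and at 554.1, 619.4 and 592.8 in the DKSFM replicates. The groups did not overlap, and Hif1a fell by 0.38 ± 0.07 (log2, SE, limma adjusted p = 0.00119). When only the 4 libraries named as combined were compared, an alternative chosen after seeing the data, the log2 change of Hif1a was -0.22 and missed the threshold (limma adjusted p = 0.0181). In spite of its rise, Epas1 stayed below Hif1a in every library, at 15.1% ± 1.1 (SD, n = 3) of their joint coverage in the DKSFM cells and 0.148% ± 0.046 (SD, n = 3) in the KSFM-Ca2+ cells.

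Of the HIF prolyl hydroxylase genes, the pair among the 36 fell, while Egln2, given further on, rose. Egln3, itself a well-known HIF target, was at 48.4, 49.5 and 47.3 in the KSFM-Ca2+ replicates and at 0.531, 0.200 and 0.318 in the DKSFM replicates. Its DKSFM values lay a few rounding steps above 0, and Egln3 fell by 6.82 (log2), a size that these low values leave imprecise. Egln3 reached the coverage minimum in 3 libraries only through the KSFM-Ca2+ cells, where it was high. Its call therefore adds nothing to the values and no p-value is given, though Egln3 is counted among the called genes. Egln1, the main oxygen sensor of most tissues, was at 117.5, 119.1 and 116.2 in the KSFM-Ca2+ replicates and at 78.2, 80.0 and 78.6 in the DKSFM replicates. Egln1 fell by 0.57 ± 0.03 (log2, SE, limma adjusted p = 4.03e-07). The window of the Egln3 sequence above held ACGTG once.

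**Figure D2:**
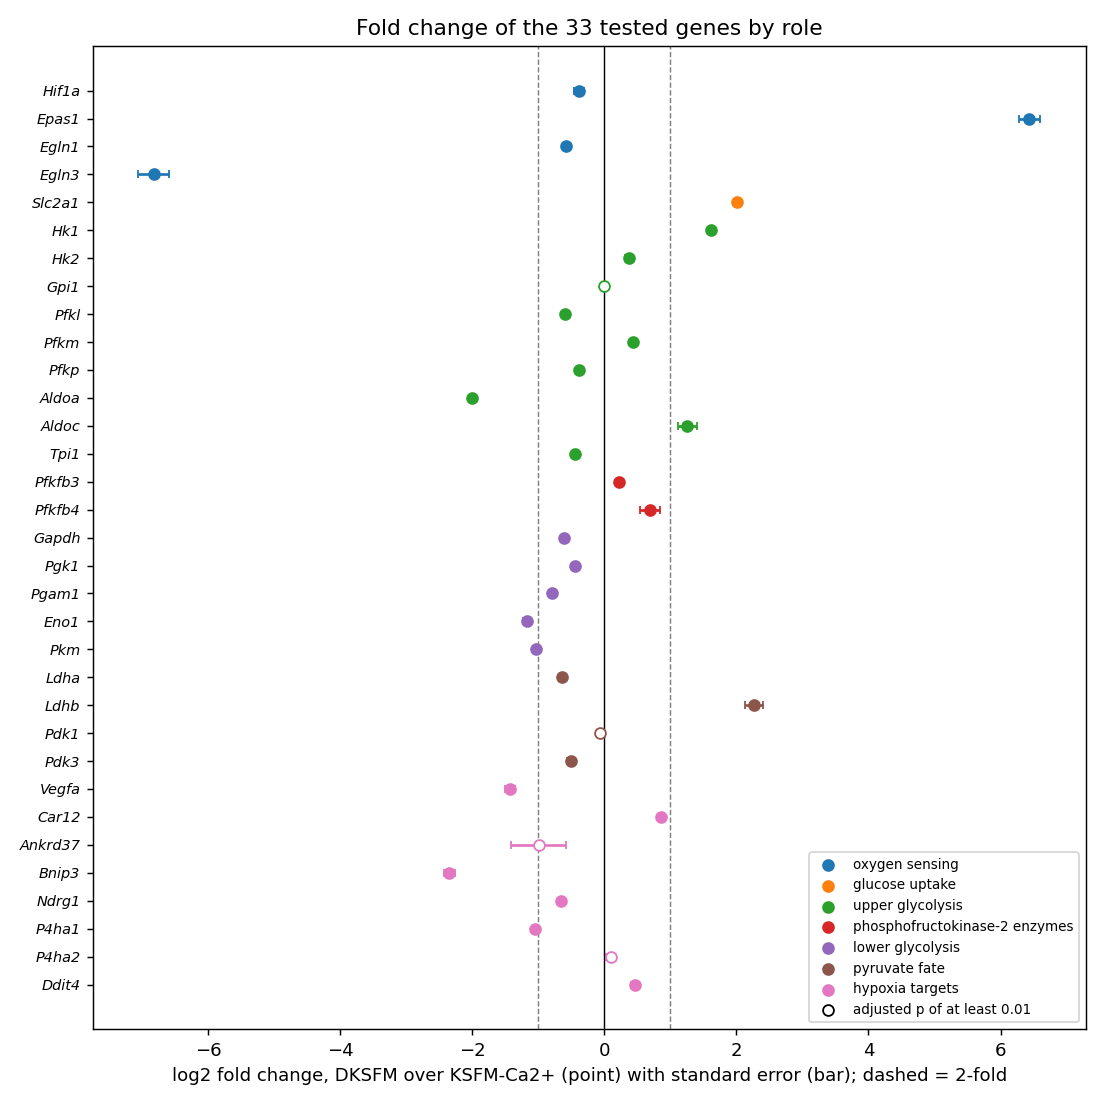
Log2 fold change (DKSFM over KSFM-Ca2+) of the 33 tested genes, with the standard error as a bar, coloured by role, where dashed lines mark 2-fold and open points have a limma adjusted p of at least 0.01. Points run from -6.82 for Egln3 to 6.44 for Epas1, and the 5 tested genes of lower glycolysis all lie left of 0.

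Among the genes of glucose uptake and trapping, Slc2a1 and both hexokinase genes of the 36 rose. Slc2a1, which encodes the glucose transporter GLUT1 of basal keratinocytes and lies on chromosome 4 (GRCm38, 119108745 to 119137330), was at 44.8, 47.6 and 43.1 in the KSFM-Ca2+ replicates and at 193.0, 176.0 and 177.5 in the DKSFM replicates. All DKSFM libraries were above all KSFM-Ca2+ libraries, and Slc2a1 rose by 2.01 ± 0.05 (log2, SE, limma adjusted p = 1.14e-08). Slc2a3, the gene of the neuronal transporter GLUT3, was listed at 0 in every library and was not tested. Hk1, the hexokinase of most resting tissues, was at 27.6, 25.2 and 25.7 in the KSFM-Ca2+ replicates and at 79.2, 78.8 and 84.3 in the DKSFM replicates. It rose by 1.62 ± 0.05 (log2, SE, limma adjusted p = 2.49e-08). Hk2, the HIF-inducible hexokinase, was at 14.9, 14.7 and 15.0 in the KSFM-Ca2+ replicates and at 18.4, 18.8 and 20.7 in the DKSFM replicates. It rose by only 0.37 ± 0.06 (log2, SE, limma adjusted p = 0.000432), and with the 4 combined libraries alone it was at 0.36 and missed the threshold (limma adjusted p = 0.0102).

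The remaining genes of upper glycolysis were divided. Gpi1, which turns glucose-6-phosphate into fructose-6-phosphate, was at 137.0, 139.5 and 144.1 in the KSFM-Ca2+ replicates and at 139.6, 134.7 and 145.3 in the DKSFM replicates. These ranges overlapped, the log2 fold change was -0.0037 ± 0.037 (SE, limma adjusted p = 0.930), and its sign turned with the scaling between libraries. Among the genes of phosphofructokinase-1 subunits, Pfkl fell by 0.60 and Pfkp fell by 0.38 while Pfkm rose by 0.44 (log2, limma adjusted p = 5.05e-07, 5.85e-05 and 6.84e-05). Aldoa, the main aldolase gene outside liver and brain, was at 3571, 3649 and 3894 in the KSFM-Ca2+ replicates and at 946.8, 882.8 and 958.1 in the DKSFM replicates. It stood at percentile 99.8 of the tested genes by mean coverage in the KSFM-Ca2+ cells and at percentile 98.5 in the DKSFM cells, and it fell by 1.995 ± 0.044 (log2, SE, limma adjusted p = 5.97e-09). Aldoc, the brain aldolase, was at 2.13, 2.57 and 3.07 in the KSFM-Ca2+ replicates and at 6.37, 5.60 and 6.89 in the DKSFM replicates. It rose by 1.26 ± 0.15 (log2, SE, limma adjusted p = 6.66e-05) at a level far below that of Aldoa. Tpi1, which interconverts the triose phosphates, fell by 0.45 ± 0.03 (log2, SE, limma adjusted p = 4.45e-06).

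Of the genes that control fructose-2,6-bisphosphate, the pair among the 36 rose by under 2-fold, while others did not rise. Pfkfb3, whose enzyme mainly makes it, was at 100.3, 99.5 and 101.7 in the KSFM-Ca2+ replicates and at 117.3, 116.8 and 116.6 in the DKSFM replicates, a rise of 0.22 ± 0.03 (log2, SE, limma adjusted p = 9.93e-05). Pfkfb4 was at 3.28, 2.77 and 3.30 in the KSFM-Ca2+ replicates and at 4.03, 5.80 and 5.62 in the DKSFM replicates, a rise of 0.69 ± 0.15 (log2, SE, limma adjusted p = 0.00317). Among the 29, the call of Pfkfb4 was lost under the most alternatives, at a limma adjusted p of 0.0131 without KSFM-Ca2+ replicate 2, 0.0170 without DKSFM replicate 2, 0.0159 without DKSFM replicate 3, 0.0162 with quantile normalization and 0.0416 with the combined libraries alone. Their sister genes outside the 36, chosen after their values were seen, went the other way, as Pfkfb1 fell by 0.73 and Pfkfb2 fell by 0.18 (log2, limma adjusted p = 0.00232 and 0.00544). The call of Pfkfb1 was lost without DKSFM replicate 2 or 3 (limma adjusted p = 0.0102 and 0.0111). That of Pfkfb2 was lost when any library but KSFM-Ca2+ replicate 3 was left out (limma adjusted p from 0.0114 to 0.0289). The call of Pfkfb2 was also lost with the replicate block (limma adjusted p = 0.0119), and its log2 fold change was -0.14 with the combined libraries alone. Tigar, which removes fructose-2,6-bisphosphate, missed the threshold (log2 fold change 0.08, limma adjusted p = 0.172).

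In lower glycolysis, all 5 tested genes fell, where 37.1% of all tested genes fell. Pkm, the gene of muscle and tumour pyruvate kinase, was at 2444, 2474 and 2527 in the KSFM-Ca2+ replicates and at 1239, 1177 and 1237 in the DKSFM replicates. It fell by 1.03 ± 0.03 (log2, SE, limma adjusted p = 2.51e-08), and without DKSFM replicate 2 the log2 fold change of Pkm was just under 2-fold, at -0.998. Eno1, the enolase gene of most tissues, was at 271.6, 273.1 and 297.3 in the KSFM-Ca2+ replicates and at 127.4, 113.8 and 132.1 in the DKSFM replicates. It fell by 1.17 ± 0.06 (log2, SE, limma adjusted p = 4.86e-07). The level of Eno1 is uncertain, because its coverage was 1.92 times that of the near-identical gene Eno1b in each of the 6 libraries, and reads of the pair may have been split between them. Gapdh was at 1508, 1433 and 1476 in the KSFM-Ca2+ replicates and at 986.1, 934.1 and 990.0 in the DKSFM replicates. It fell by 0.60 ± 0.03 (log2, SE, limma adjusted p = 7.39e-07), and it is also the gene to which the study scaled its qPCR. Pgk1 and Pgam1, the kinase and the mutase between Gapdh and enolase, fell by 0.45 and 0.79 (log2, limma adjusted p = 1.52e-06 and 3.88e-07). Eno2, the neuronal enolase gene, was at 0 in every KSFM-Ca2+ library and at 0.637, 0.600 and 0.212 in the DKSFM replicates, which was too low to be tested. Gapdh, Pgk1, Pgam1, Tpi1, Aldoa and Ldha have processed copies in the mouse genome that can share reads with them.

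At the fate of pyruvate the lactate dehydrogenase genes parted. Ldha, which favours lactate formation, was at 1862, 1922.5 and 2058 in the KSFM-Ca2+ replicates and at 1281, 1228 and 1251 in the DKSFM replicates. It fell by 0.63 ± 0.04 (log2, SE, limma adjusted p = 1.61e-06). Ldhb, whose subunit is typical of heart, was at 4.80, 5.14 and 7.20 in the KSFM-Ca2+ replicates and at 28.3, 27.5 and 26.8 in the DKSFM replicates. Ldhb rose by 2.27 ± 0.14 (log2, SE, limma adjusted p = 1.29e-06), yet held only 2.15% ± 0.047 (SD, n = 3) of the joint coverage in the DKSFM cells, after 0.291% ± 0.050 (SD, n = 3) in the KSFM-Ca2+ cells. In the windows shown above, ACGTG was found 5 times before the Ldha start that is shown and GCGTG once before the Ldhb start. The 5 matches count those that overlap on opposite strands separately, and the other Ldha start had no ACGTG. Of the pyruvate dehydrogenase kinases, which keep pyruvate out of the mitochondrial oxidation, Pdk3 fell by 0.50 ± 0.06 (log2, SE, limma adjusted p = 6.53e-05). Pdk1, a HIF target, was at 40.8, 41.3 and 40.7 in the KSFM-Ca2+ replicates and at 40.2, 37.7 and 39.9 in the DKSFM replicates and missed the threshold, with a log2 fold change of -0.061 ± 0.040 (SE, limma adjusted p = 0.185).

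Of the 9 hypoxia targets, 8 were tested, of which 4 fell, 2 rose and 2 missed the threshold, beside the 37.1% and 35.5% of all tested genes that fell and rose. Bnip3, a mitophagy receptor, was at 22.1, 25.7 and 26.1 in the KSFM-Ca2+ replicates and at 4.88, 4.90 and 4.45 in the DKSFM replicates. It fell by 2.35 ± 0.08 (log2, SE, limma adjusted p = 6.16e-08). Vegfa, the main growth factor of blood vessels, was at 256.5, 277.2 and 232.9 in the KSFM-Ca2+ replicates and at 93.0, 104.3 and 87.7 in the DKSFM replicates. It fell by 1.43 ± 0.08 (log2, SE, limma adjusted p = 7.01e-07). P4ha1, a collagen prolyl 4-hydroxylase subunit, was at 41.8, 43.4 and 42.5 in the KSFM-Ca2+ replicates and at 21.2, 20.3 and 20.4 in the DKSFM replicates, and fell by 1.04 ± 0.04 (log2, SE, limma adjusted p = 1.12e-07). Ndrg1, a stress-response gene, fell by 0.66 ± 0.05 (log2, SE, limma adjusted p = 3.70e-06).

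The 2 targets that rose were Car12 and Ddit4. Car12, a membrane carbonic anhydrase that handles acid outside the cell, was at 91.5, 84.9 and 78.0 in the KSFM-Ca2+ replicates and at 150.1, 156.2 and 156.2 in the DKSFM replicates, a rise of 0.86 ± 0.06 (log2, SE, limma adjusted p = 1.89e-06). Ddit4, an inhibitor of mTORC1 signalling, rose by 0.46 ± 0.06 (log2, SE, limma adjusted p = 8.18e-05). Car9, the carbonic anhydrase most used as a hypoxia marker, was at 0.457, 0.297 and 0.354 in the KSFM-Ca2+ replicates and at 0 in every DKSFM library, and was too low to be tested. P4ha2, the sister gene of P4ha1, was at 16.8, 18.3 and 16.9 in the KSFM-Ca2+ replicates and at 18.2, 17.2 and 20.4 in the DKSFM replicates and missed the threshold (log2 fold change 0.10 ± 0.07, SE, limma adjusted p = 0.252). Ankrd37 was at 1.83, 1.98 and 1.18 in the KSFM-Ca2+ replicates and at 0.425, 1.599 and 0.636 in the DKSFM replicates. These overlapped, with a log2 fold change of -0.99 ± 0.42 (SE, limma adjusted p = 0.0565). DKSFM replicate 2 decided that call, and without it the log2 fold change was -1.47 with a limma adjusted p of 0.00341.

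The coverage of those of the 36 genes that belong to each of 12 steps, from uptake to lactate dehydrogenase, was summed in each library, and related genes outside the 36 were left out of the sums. The sums of the 2 first steps were higher in every DKSFM library than in any KSFM-Ca2+ library. For uptake, where Slc2a1 was the only gene above 0, the sum was 45.1 ± 2.3 in the KSFM-Ca2+ cells and 182.1 ± 9.4 in the DKSFM cells (SD, n = 3), or 4.03-fold higher. For hexokinase the sums were 41.0 ± 1.3 and 100.05 ± 4.25 (SD, n = 3), or 2.44-fold higher. The isomerase step of Gpi1 overlapped between the lines. The sums of the 9 steps from phosphofructokinase-1 on were lower in every DKSFM library than in any KSFM-Ca2+ library. Of all tested genes, 83.3% did not overlap between the lines, counted in both directions together, and 37.1% were called lower. The share lying wholly lower was not computed, and no step was tested for more than this absence of overlap. Among them, phosphofructokinase-1 differed least, at 201.2 ± 3.3 against 164.6 ± 3.5 (SD, n = 3), or 1.22-fold, and aldolase most, at 3707 ± 169 against 935.5 ± 41.3 (SD, n = 3), or 3.96-fold.

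**Figure D3:**
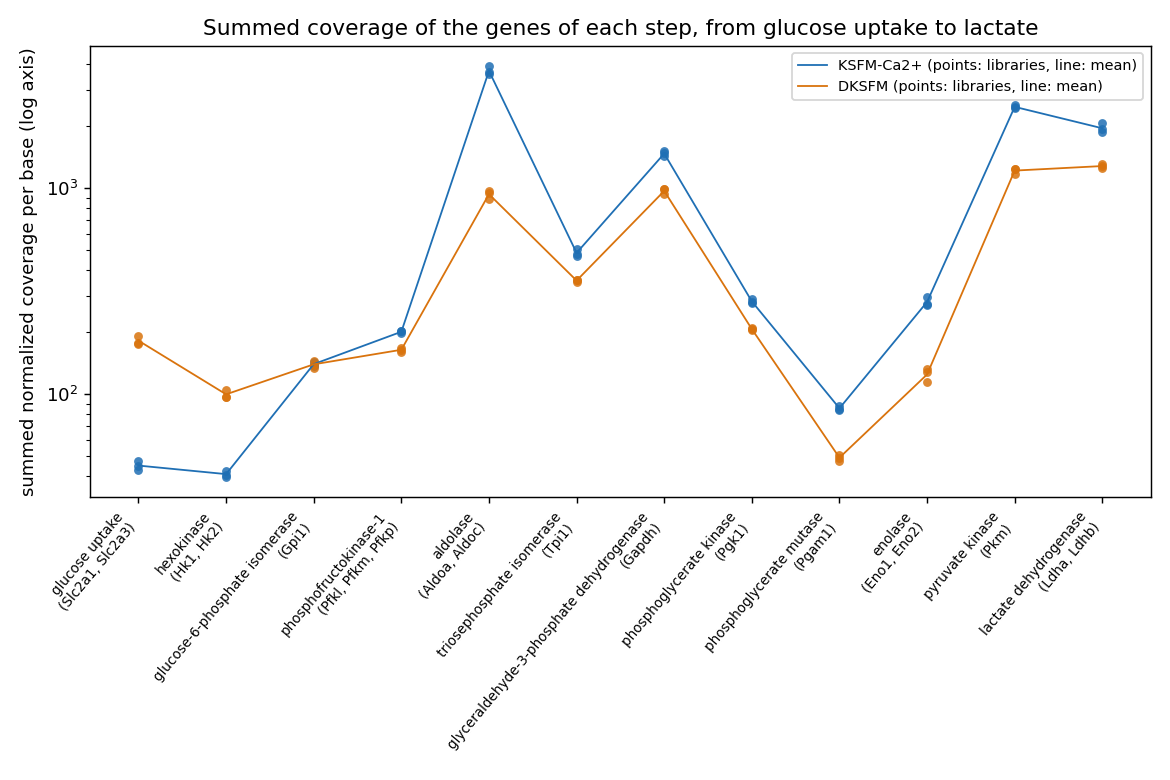
Summed normalized coverage per base (log axis) of those of the 36 genes that belong to each of 12 steps, from glucose uptake to lactate dehydrogenase, where points are the 3 libraries of each line and lines join the means. The DKSFM values (orange) lie above the KSFM-Ca2+ values (blue) at the first 2 steps, overlap them at the Gpi1 step and lie below them at the 9 later steps.

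The coverage of all 36 genes added up to 12717, 12815 and 13172 in the KSFM-Ca2+ replicates and to 7207.5, 7015 and 7255 in the DKSFM replicates. The mean was 12902 ± 240 in the KSFM-Ca2+ cells and 7159 ± 127 in the DKSFM cells (SD, n = 3), a 1.80-fold difference. A few abundant genes made most of it, since Aldoa alone accounted for 48.3% of the difference and Aldoa, Pkm, Ldha and Gapdh together for 91.2%. Without Aldoa the difference was 1.48-fold. As a share of the unscaled coverage of a library, the 36 genes took 1.04%, 1.05% and 1.06% in the KSFM-Ca2+ replicates and 0.578%, 0.566% and 0.585% in the DKSFM replicates, so the difference was also present with libraries scaled by their totals alone.

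The choice between related enzymes was compared as the share of each gene in the coverage of its family, over 12 families made up of the 36 genes alone, so that Egln2 and other relatives were left out. In 11 of these the shares of the 2 lines did not overlap. The coverage of 83.3% of all tested genes did not overlap either, a figure for levels and not for shares. In enolase and carbonic anhydrase the separation rested on Eno2 and Car9, which were too low to be tested. For each of the 11 an exact two-sided permutation test gave p = 0.10, the smallest that 3 against 3 libraries allow, so that no family could pass a threshold. The prolyl hydroxylases differed most, with Egln3 at 29.2% ± 0.23 of the Egln1 and Egln3 coverage in the KSFM-Ca2+ cells and 0.442% ± 0.215 in the DKSFM cells (SD, n = 3). Among collagen prolyl 4-hydroxylases, P4ha2 held 28.9% ± 0.63 in the KSFM-Ca2+ cells and 47.3% ± 2.3 in the DKSFM cells (SD, n = 3). Hk1 led the hexokinases in both lines, with 63.8% ± 1.1 in the KSFM-Ca2+ cells and 80.7% ± 0.44 in the DKSFM cells (SD, n = 3). In phosphofructokinase-1 the Pfkm share was 18.2% ± 0.55 in the KSFM-Ca2+ cells and 30.2% ± 0.85 in the DKSFM cells, and the Pfkl share 53.1% ± 1.3 and 42.8% ± 1.2 (SD, n = 3). Pdk1 held 55.6% ± 0.82 of the Pdk1 and Pdk3 coverage in the KSFM-Ca2+ cells and 63.0% ± 0.84 in the DKSFM cells (SD, n = 3). Aldoa held 99.9% and 99.3% of the aldolase coverage, so the rise of Aldoc left the aldolase family nearly as it was.

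**Figure D4:**
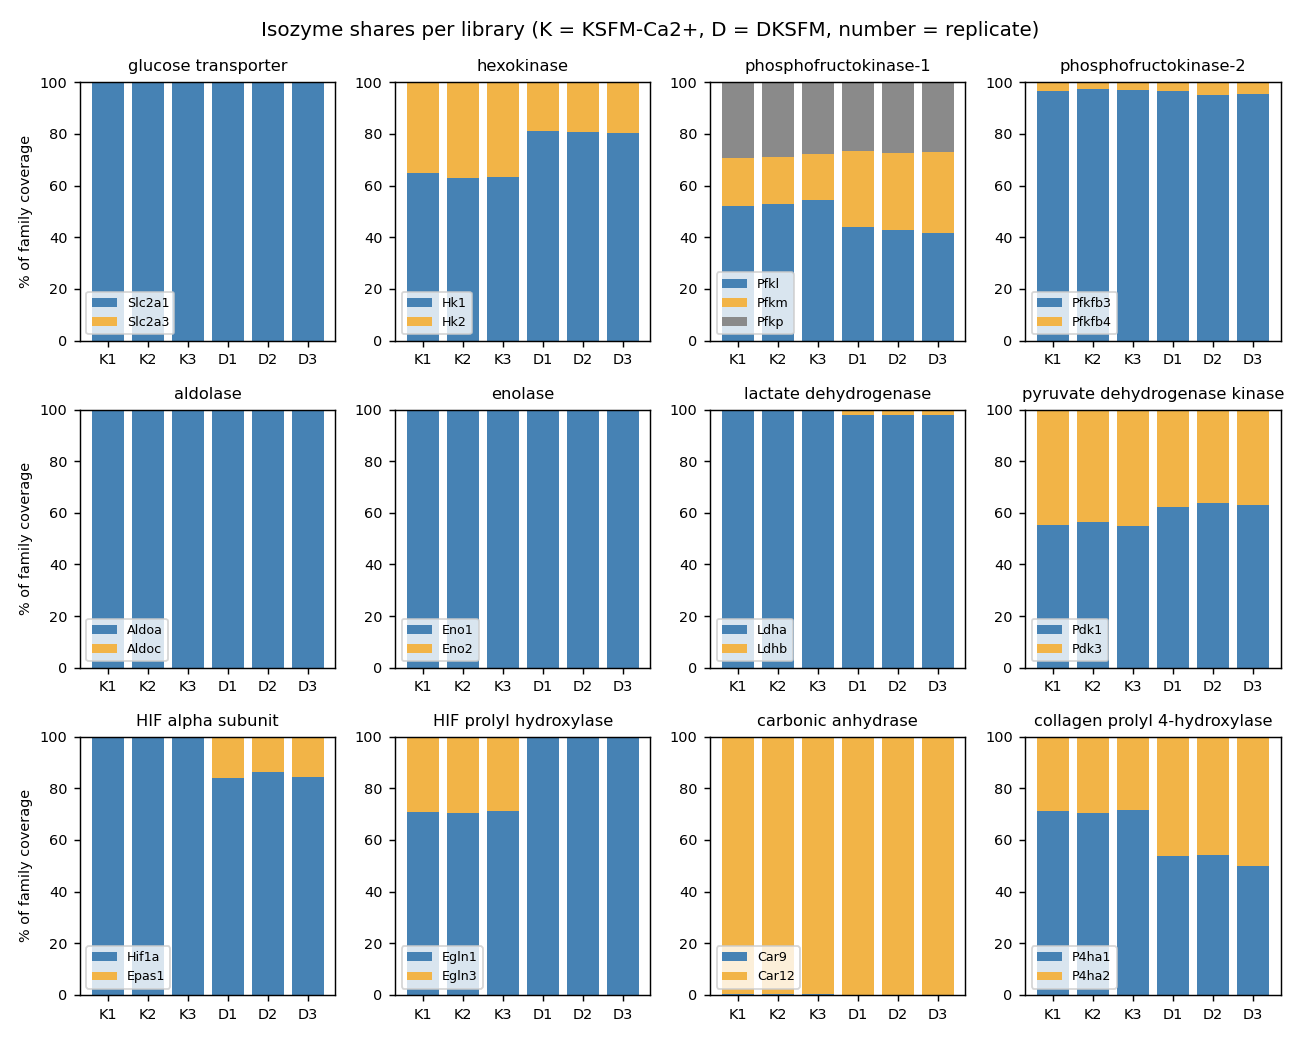
Share (%) of each gene in the summed coverage of its family, in 12 families made up of the 36 genes alone, with 1 bar for each library (K for KSFM-Ca2+, D for DKSFM, with the replicate number). The Egln3 share is 29.2% on average in the KSFM-Ca2+ replicates and 0.442% in the DKSFM replicates, and the Hk1 share 63.8% and 80.7%.

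A further 110 genes of the same pathways were read from lists written from general knowledge, of which 87 were tested. In limma, 28 of the 87 rose and 42 fell, and the median on the log2 scale was -0.15, beside the shares of 35.5% and 37.1% of all tested genes. Among other transporters and glycolytic enzymes, 20 of 36 were tested, 4 rose and 11 fell, and the median on the log2 scale was -0.37. Past 2-fold, 3 of these genes rose and 5 fell, beside 13.2% and 10.5% of all tested genes. The fructose transporter gene Slc2a5 fell by 1.83 and the muscle enolase gene Eno3 fell by 1.76 (log2, limma adjusted p = 8.98e-07 and 1.54e-07). Those that rose past 2-fold were Pgam2, Gapdhs and Galm, named after their values were seen. Their coverage was at or near 0 in the KSFM-Ca2+ cells and averaged 3.73, 1.63 and 0.797 in the DKSFM cells, so no fold is given. Pgam2, Gapdhs and Galm reached the coverage minimum only through the DKSFM cells, so their calls add nothing to the values, though they are counted. Other hexose transporter genes, chosen after their values were seen, went both ways, as Slc2a9 fell by 0.72 and Slc2a8 rose by 0.61 (log2, limma adjusted p = 4.72e-05 and 4.63e-05). Adpgk, an ADP-dependent glucokinase gene also chosen after its values were seen, fell by 0.71 (log2, limma adjusted p = 5.31e-07). In the entry of pyruvate into mitochondria, 12 of 13 genes were tested, 5 rose and 5 fell, with a median of 0.06. There Pdp2, a phosphatase that switches pyruvate dehydrogenase on, fell by 1.603 (log2, limma adjusted p = 1.84e-06). Its more abundant sister gene Pdp1, chosen after its values were seen, rose by 0.76 (log2, limma adjusted p = 5.80e-07). Pdk2, chosen after its values were seen, was at 1.22, 1.58 and 1.77 in the KSFM-Ca2+ replicates and at 6.16, 6.10 and 5.51 in the DKSFM replicates (log2 fold change 1.90, limma adjusted p = 5.04e-06). The pentose phosphate pathway, which branches off at glucose-6-phosphate and yields NADPH, had 1 of 8 genes higher and 4 lower, all by under 2-fold, with a median of -0.30. The one that rose was G6pdx, the gene of its entry enzyme glucose-6-phosphate dehydrogenase, from 59.0, 61.7 and 59.9 in the KSFM-Ca2+ replicates to 104.5, 101.2 and 109.8 in the DKSFM replicates (log2 fold change 0.80, limma adjusted p = 3.78e-07). G6pdx was chosen after its values were seen.

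Among partners and regulators of HIF, 11 of 12 genes were tested, 4 rose and 5 fell, beside 35.5% and 37.1% of all tested genes, and the median on the log2 scale was 0.01. The genes named from this list were chosen after their values were seen. Egln2, the remaining HIF prolyl hydroxylase gene, was at 74.1, 72.8 and 73.2 in the KSFM-Ca2+ replicates and at 136.8, 140.4 and 145.8 in the DKSFM replicates, and so moved opposite to Egln1 and Egln3, with a rise of 0.94 ± 0.03 (log2, SE, limma adjusted p = 6.09e-08). Vhl and Arnt rose by 0.51 and 0.52 (log2, limma adjusted p = 5.28e-05 and 1.75e-05), while Cul2, Rbx1 and Eloc, which encode further parts of the VHL ubiquitin ligase, fell by 0.41, 0.43 and 0.77 (log2, limma adjusted p = 2.54e-05, 7.62e-06 and 8.30e-07). Elob, the most abundant gene of that ligase in the list, overlapped between the lines (log2 fold change 0.014, limma adjusted p = 0.666). Vhl, Arnt and Egln2 lay in windows of 20 Mb with medians of 0.49, 0.51 and 0.535, so that Vhl and Arnt moved like their neighbours. Hif3a was at 4.95, 5.04 and 4.84 in the KSFM-Ca2+ replicates and at 0 in every DKSFM library, so no fold is given. It reached the coverage minimum only through the KSFM-Ca2+ cells, so its call adds nothing to the values, though it is counted.

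Of 41 other known HIF targets, 36 were tested, 14 rose and 17 fell, the median on the log2 scale was -0.14, and past 2-fold there were 6 in each direction. All tested genes likewise went both ways, with 35.5% and 37.1% called and 13.2% and 10.5% past 2-fold, and no test of the list was made. Lox, a cross-linking enzyme of collagen and elastin, was at 0 in every KSFM-Ca2+ library and at 351.9, 353.04 and 370.8 in the DKSFM replicates. Tmem45a, a membrane protein gene, was at 3.66, 4.05 and 3.89 in the KSFM-Ca2+ replicates and at 392.1, 395.2 and 389.1 in the DKSFM replicates, and rose by 6.63 ± 0.05 (log2, SE, limma adjusted p = 4.16e-11). In the other direction, Nos2, the inducible nitric oxide synthase gene, was at 12.9, 12.2 and 11.6 in the KSFM-Ca2+ replicates and at 0 in every DKSFM library. Lox, Nos2 and Flt1, which also fell past 2-fold, reached the coverage minimum in 3 libraries only through the line where they were higher. Their calls therefore add nothing to the values, though these genes are included in the counts of this list. Stc2, a secreted glycoprotein gene, was at 10.4, 11.9 and 10.3 in the KSFM-Ca2+ replicates and at 0.637, 0.799 and 0.636 in the DKSFM replicates. It fell by 3.80 ± 0.13 (log2, SE, limma adjusted p = 4.48e-08), a size that its low DKSFM values leave imprecise. Chosen after their values were seen, Tfrc and Bnip3l fell by 2.34 and 0.83 (log2, limma adjusted p = 1.63e-08 and 2.59e-06), and Cited2 and Adm rose by 2.47 and 1.74 (log2, limma adjusted p = 4.93e-08 and 2.07e-05).

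Cell type markers were read beside these values. All 7 keratinocyte markers were tested, their summed coverage was 19058, 19458 and 19092 in the KSFM-Ca2+ replicates and 45128, 41214 and 45512 in the DKSFM replicates, and Krt14 was the most abundant. The difference in this sum was mainly that of Krt14 and Krt5, while Dsp, Col17a1, Itga6 and Trp63 were 2.41-fold, 1.29-fold, 1.102-fold and 1.095-fold higher, Itgb4 fell by 0.74 (log2, limma adjusted p = 4.43e-07) and the median of the 7 on the log2 scale was 0.37. Of 9 fibroblast markers, 7 were listed at 0 in every library, among them Col1a1, Col1a2 and Col3a1, and the sum was 8.76, 8.21 and 8.38 in the KSFM-Ca2+ replicates and 2.44, 2.10 and 2.23 in the DKSFM replicates. Twist2 made most of the first sums and was at 0.106, 0 and 0 in the DKSFM replicates, where Pdgfra made nearly all of the sum, and Pdgfra rose by 0.95 (log2, limma adjusted p = 0.000732, or 0.0169 with the combined libraries alone). Of 8 melanocyte markers, 1 was tested (Mitf, the most abundant), Dct, Tyr and Kit were listed at 0, and the sum was 4.12, 3.96 and 4.60 against 17.3, 18.8 and 18.3. Of 8 immune markers, 1 was tested (Cd68, the most abundant), Cd3e and Adgre1 were listed at 0, and the sum was 10.8, 11.2 and 12.5 against 13.7, 19.1 and 20.7. Of 6 endothelial markers, 1 was tested (Pecam1, the most abundant), Cdh5, Emcn and Vwf were listed at 0, and the sum was 2.82, 3.16 and 3.30 against 8.28, 8.29 and 7.42. The part of these differences in the values of the 36 genes was not tested.

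Karyotypes of KSFM-Ca2+ cells in the study were not diploid, and that of the adapted DKSFM line is not known here. Each of the 33 tested genes was therefore set beside its neighbours, taken as all tested genes in a window of 20 Mb around it. The windows held 38 to 269 tested genes, and their median log2 fold changes ran from -0.56 to 0.59. The sign of the gene matched that of its window for 18 genes and differed for 15. Of the 12 genes past 2-fold, 11 also lay more than 2-fold from their window median, the exception being Pkm, which lay 0.64 below its window on the log2 scale. Gapdh and Ldha lay in windows that were higher in the DKSFM cells, with medians of 0.50 and 0.57, and Car12 in one that was lower, with a median of -0.28. Relative to these windows Gapdh fell by 1.101, Ldha fell by 1.20 and Car12 rose by 1.14 (log2). Egln1, Hk2, Pfkp and Pdk1 lay within 0.1 of their windows, as with Egln1 at -0.57 beside a window median of -0.56. DNA copy number was not measured in these libraries, and its part in the values was not tested.

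**Figure D5:**
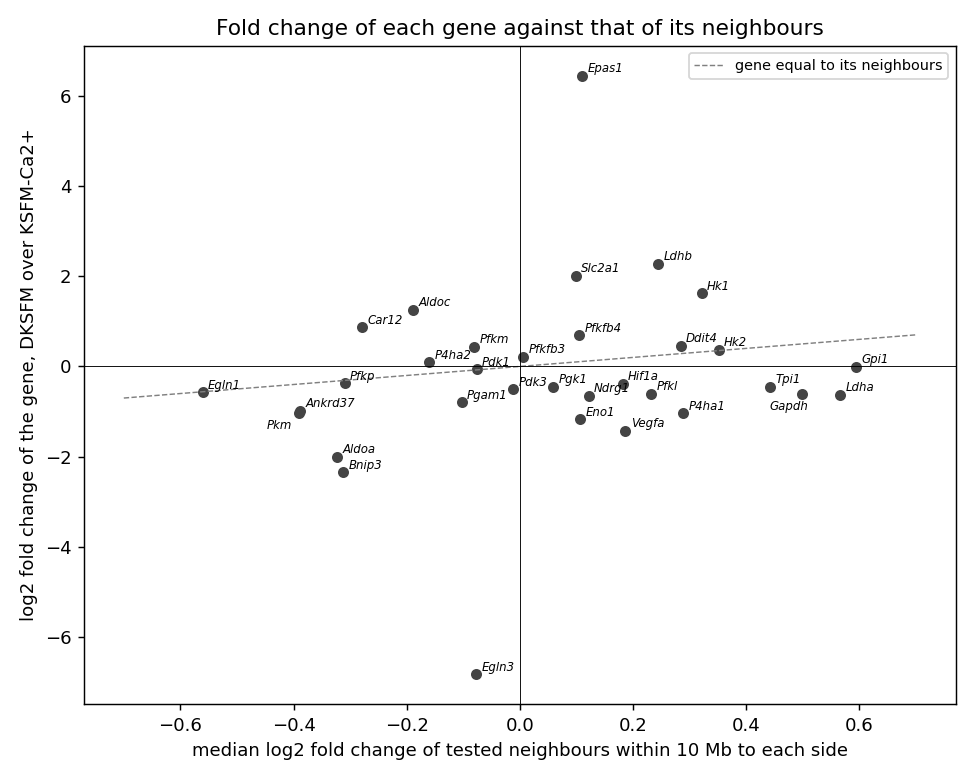
Log2 fold change (DKSFM over KSFM-Ca2+) of each of the 33 tested genes against the median log2 fold change of the tested genes in a window of 20 Mb around it, where the dashed line marks a gene equal to its neighbours. Window medians span -0.56 to 0.59, while the genes span -6.82 to 6.44.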

How the data were processed

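The RNA-seq of 3 KSFM-Ca2+ and 3 DKSFM libraries was analysed, grouped by the sample labels. Per the labels and notes of the submitters, poly(A) RNA gave directional libraries, of which single reads (85 bases) were mapped with STAR on mm10 to RefSeq genes and quantified with Salmon. The deposited unit is a signal, namely coverage averaged over the bases of a gene, which the authors did not scale to library size. How it was computed is not given in the sources used here. Since coverage is not a count, no count model was fitted and no counting interval is given. The rounding step of 0.1 limits low values.

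Libraries were scaled with unweighted trimmed means of M values (trims 30% and 5%, factors 0.991 to 1.01), and log2(coverage + 0.1) was tested with limma 3.58.1 with an intensity trend, two-sided, in R 4.3.3, with Benjamini-Hochberg adjustment over 12409 genes. Family shares were tested by exact permutation in Python 3.11.15. Figures were drawn with matplotlib 3.10.9. The procedure was tested on simulated data. Members and lists were chosen with earlier results of these data known. Named genes were the 36 members and, in each wider list, up to 2 per direction past 2-fold with a mean of at least 10, others being marked in the text. Start sites and their sequences are from RefSeq (GRCm38.p6). Positions of neighbours are on GRCm38. Alternatives were other scalings, filters and pseudocounts, no trend, a replicate block, each library left out and the combined libraries alone.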

Additional observations from a re-analysis of the deposited data

How the results depend on the processing

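Of the 36 genes, 29 were members past the adjusted p threshold and 12 were members past the adjusted p threshold and 2-fold, and both counts stayed within 1.5 times of these under every alternative run. They were 28 and 11 under a filter on every library, and 25 and 11 with the 4 libraries named as combined, an alternative chosen after seeing the data in which the lone KSFM-Ca2+ library is assumed to vary like the others. With each library left out, they ranged from 29 to 30 and from 12 to 13, though not with the same genes, as without DKSFM replicate 2 the log2 fold change of Pkm was -0.998 and Ankrd37 was called. Deviations of same-numbered libraries correlated at -0.0051, 0.024 and -0.0061 across genes, and those of other pairs of libraries from -0.037 to 0.040. These values cannot show whether same-numbered libraries were prepared together, which is not stated. A fit with the replicate block gave 29 and 12 genes, with 8724 instead of 9008 for all tested genes past the adjusted p threshold. Counts past 2-fold in the wider lists moved by over 1.5 times in 4 cases and by less in others. Under the filter on every library, which leaves out genes listed at 0 in a line, the other transporters and glycolytic enzymes higher in the DKSFM cells went from 3 to 0, and the HIF partners and regulators lower in these cells (Hif3a) went from 1 to 0, as they did in limma with the combined libraries alone, where a single KSFM-Ca2+ library is left to reach the minimum. With a pseudocount of 1, the transporters and enzymes lower in the DKSFM cells went from 5 to 3, and the cause was not tested. The log2 fold change of Gpi1, which missed the threshold in every alternative, reversed from -0.0037 to 0.0089 with relative log expression size factors and to 0.049 with quantile normalization, and ranged from -0.032 to 0.028 with each library left out. The log2 fold change of Elob, which also missed the threshold, reversed from 0.014 to -0.00077 with the combined libraries alone and ranged from -0.0052 to 0.039 with each library left out. The causes were not tested. No scaling moved the median of all tested genes by over 0.1. Low coverage limits the folds of Epas1 (log2 fold change of Epas1 6.44, or 5.64 with a pseudocount of 1), Egln3 (log2 fold change of Egln3 -6.82, or -5.20 with a pseudocount of 1, and not tested under the filter on every library or with the combined libraries alone), Ankrd37, Aldoc, Pfkfb4 and Stc2, for which a few rounding steps matter.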
